A study of Mus musculus with 8 samples.

Results

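The genes described here encode the MHC class II antigen presentation pathway. The 9 genes were taken from a fixed list (H2-Aa, H2-Ab1, H2-Eb1, Cd74, Ciita, H2-DMa, H2-DMb1, H2-Oa and H2-Ob), and 8 of them had a probe set that the platform annotation gives to exactly 1 gene symbol, of 22180 genes measured in this way. The probe set of Cd74, the invariant chain, carries a second symbol and was therefore not analysed here. Each of the 8 genes rests on 1 probe set, so a probe fault in any of them would not have been seen. For H2-Oa, 1 further probe set carries several symbols and was left out by the same rule.

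Total brain RNA was hybridised to 8 microarrays, 1 per sample, with 2 samples in each of 4 groups. All mice had been immunized with MOG, a myelin protein that provokes an autoimmune attack on the central nervous system, and were taken on day 14, which the labels call the maximum of the disease; no group was left without immunization. The groups were C57BL/6Je/e mice given NDP-MSH, C57BL/6Je/e mice given PBS, wild-type mice given NDP-MSH and wild-type mice given PBS. C57BL/6Je/e mice (e/e below) were recognised by a yellow coat and wild-type mice by a black one. The yellow e/e mice carry an inactive Mc1r, a melanocortin receptor best known from melanocytes, in the whole body. NDP-MSH, a stable form of alpha-MSH that binds several melanocortin receptors, was injected into the vein 3 times, on days 8, 10 and 12, with a dose of 5 µg each. The labels do not say whether 2 samples of a group came from separate animals, give no age, and give no disease score of the animals. The p-values therefore reflect sample-to-sample spread, which may be technical.

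MHC class II molecules are paired alpha and beta chains that display peptides from engulfed proteins to CD4 T cells. H2-Aa and H2-Ab1 encode the chains of the mouse A molecule and H2-Eb1 the beta chain of the E molecule, whose alpha chain gene, H2-Ea, is inactive in C57BL/6 mice. Ciita is the master co-activator of these genes and is itself induced by interferon gamma. H2-DMa and H2-DMb1 encode the chains of DM, which exchanges peptides in the endosome, and H2-Oa and H2-Ob those of DO, which restrains DM and is best known from B cells. In the healthy brain class II is scarce, and in autoimmune encephalomyelitis it is known from activated microglia and from macrophages and dendritic cells that enter the tissue.

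Class II promoters carry an X box, read by the RFX factors, and downstream of it a Y box, read by NF-Y, and Ciita acts through the proteins bound there. RefSeq promoter windows (build GRCm38.p6, from 250 bases before to 50 bases after a transcription start) were at hand for 6 of the 9 genes, in 7 windows. They were searched on both strands for the letters AGNAAC, the core of the X box, and ATTGG, the core of the Y box. ATTGG stood in 6 of 7 windows, against 37.4% of all 32851 windows, and AGNAAC in 5 of 7, against 48.1%. AGNAAC followed by ATTGG on 1 strand, with 15 to 35 bases between them, stood in 4 of 7 windows, against 1.1% of all. This spacing was chosen after the sequences were seen. The stretches below all lie upstream of the start on chromosome 17. They are shown because 4 of them hold both AGNAAC and ATTGG, and the stretch of H2-Aa holds ATTGG without AGNAAC. They are printed 5′ to 3′ on the strand of the gene, with AGNAAC and ATTGG in capitals.
H2-Eb1, chr17:34305756-34305820, plus strand: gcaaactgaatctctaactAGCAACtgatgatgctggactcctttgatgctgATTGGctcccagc
H2-DMb1, chr17:34153078-34153142, plus strand: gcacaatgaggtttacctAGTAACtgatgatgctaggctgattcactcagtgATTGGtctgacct
H2-Oa, chr17:34092284-34092348, plus strand: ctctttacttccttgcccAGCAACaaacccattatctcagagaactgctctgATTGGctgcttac
H2-Ob, chr17:34238796-34238860, plus strand: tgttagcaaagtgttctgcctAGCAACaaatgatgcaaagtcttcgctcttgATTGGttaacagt
H2-Aa, chr17:34287859-34287923, minus strand: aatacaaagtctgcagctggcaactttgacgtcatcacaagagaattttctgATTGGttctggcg
Between the cores lay 27 bases in H2-Eb1, 28 in H2-DMb1, 28 in H2-Oa and 25 in H2-Ob. The whole H2-Aa window held no AGNAAC. Only these exact letters were searched, so this does not show that H2-Aa lacks an X box. Of the 2 windows of H2-DMa 1 held neither core, and the other held ATTGG on the strand of the gene and AGNAAC only on the opposite strand. A match of letters is a description and does not show that a factor was bound.

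The deposited values, taken as log2, are centred on the median of the 8 arrays for each probe set. They give differences between arrays and not each gene's level. The rounding steps of the values gave at most a coarse class, by which each of the 8 class II genes had a signal of 4 to 8 on at least 1 array. The genes were not ranked by abundance, and how high brain markers were was not read. The medians of 5 neuronal markers (Snap25, Syt1, Rbfox3, Slc17a7 and Gad1) lay between -0.19 and 0.08 in the 8 arrays. In RNA of whole tissue, fewer cells of a type and less RNA per cell cannot be told apart. Arrays differed, between whole groups and within groups, in ways that the labels do not give. The Y-linked gene Eif2s3y lay at 2.78 and 2.87 in e/e mice under NDP-MSH and at 2.04 in e/e PBS 2, against values between -0.19 and 0.02 in the other 5 arrays. Xist, the RNA that coats the silenced X of females, lay at -4.46 and -4.56 under NDP-MSH and at 0.56 and -0.82 under PBS in e/e mice, against -0.56 to 0.67 over the 4 wild-type arrays. The median of 6 cerebellar markers lay at -2.67 and -1.96 in wild-type mice under NDP-MSH, against -0.08 to 0.36 elsewhere. Prl, which encodes a pituitary hormone, read 6.97 on wild-type NDP-MSH 1 and between -0.47 and 0.10 on the other arrays. The part of sex and of dissected region in the results below was not tested.

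The classical chain genes H2-Ab1, H2-Aa and H2-Eb1 had the widest ranges of the 8 genes over the arrays, and their lowest values lay in 3 of the 4 e/e arrays. In H2-Ab1 the values, replicate 1 before replicate 2 in each pair, were -3.33 and -3.72 under NDP-MSH and -2.39 and 0.43 under PBS in e/e mice, against 0.58 and -0.23 under NDP-MSH and 0.23 and 1.14 under PBS in wild-type mice. The e/e PBS arrays lay 2.82 apart, array 1 near the e/e NDP-MSH arrays and array 2 among the wild-type arrays. The range of H2-Ab1 over the arrays was 4.85.

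H2-Aa, which encodes the partner chain of H2-Ab1, was likewise low in e/e PBS 1 and high in e/e PBS 2, with -2.44 and -2.32 under NDP-MSH and -2.03 and 0.20 under PBS in e/e mice, against 0.78 and -0.20 under NDP-MSH and 0.49 and 1.12 under PBS in wild-type mice. H2-Eb1 lay at -1.83 and -1.33 under NDP-MSH and -1.40 and 0.13 under PBS in e/e mice, against 0.51 and -0.13 under NDP-MSH and 0.25 and 1.14 under PBS in wild-type mice. For H2-Eb1, e/e PBS 1 lay between the e/e NDP-MSH arrays, so these groups overlapped. In all 3 genes wild-type PBS 2 was the highest array, and wild-type NDP-MSH 2 the lowest of the wild-type arrays.

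The co-activator gene varied less than the classical chain genes. Ciita lay at -0.67 and -0.20 under NDP-MSH and -0.54 and 0.03 under PBS in e/e mice, against 0.16 and -0.03 under NDP-MSH and 0.03 and 0.06 under PBS in wild-type mice, a range of 0.83 over the arrays. Its 3 lowest arrays were those in which H2-Ab1 was low.

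Of the peptide exchange genes, H2-DMa had the wider range. It lay at -0.61 and -0.85 under NDP-MSH and -0.72 and 0.06 under PBS in e/e mice, against 0.60 and 0.21 under NDP-MSH and -0.06 and 0.51 under PBS in wild-type mice. H2-DMb1 spanned 0.64, with -0.24 and -0.30 under NDP-MSH and -0.11 and 0.01 under PBS in e/e mice, against 0.34 and 0.18 under NDP-MSH and -0.01 and 0.04 under PBS in wild-type mice. In H2-DMa, e/e PBS 1 lay between the NDP-MSH arrays of e/e mice, and in H2-DMb1 the e/e groups did not overlap. H2-DMb1 has a close paralog, H2-DMb2, and sharing of probes between them was not tested.

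The DO genes were lowest in e/e NDP-MSH and highest in wild-type PBS by group mean. H2-Oa lay at -0.31 and -0.43 under NDP-MSH and -0.27 and -0.04 under PBS in e/e mice, against 0.30 and 0.23 under NDP-MSH and 0.04 and 0.91 under PBS in wild-type mice. H2-Ob lay at -0.22 and -0.20 under NDP-MSH and -0.06 and 0.07 under PBS in e/e mice, against -0.08 and 0.06 under NDP-MSH and 0.44 and 0.21 under PBS in wild-type mice. H2-Ob was the only one of the 8 genes whose 3 lowest arrays were not e/e NDP-MSH 1, e/e NDP-MSH 2 and e/e PBS 1. That set of 3 lowest arrays, described after the values were seen, held for 7 of 8 class II genes and for 4.86% of all genes.

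**Figure D1:**
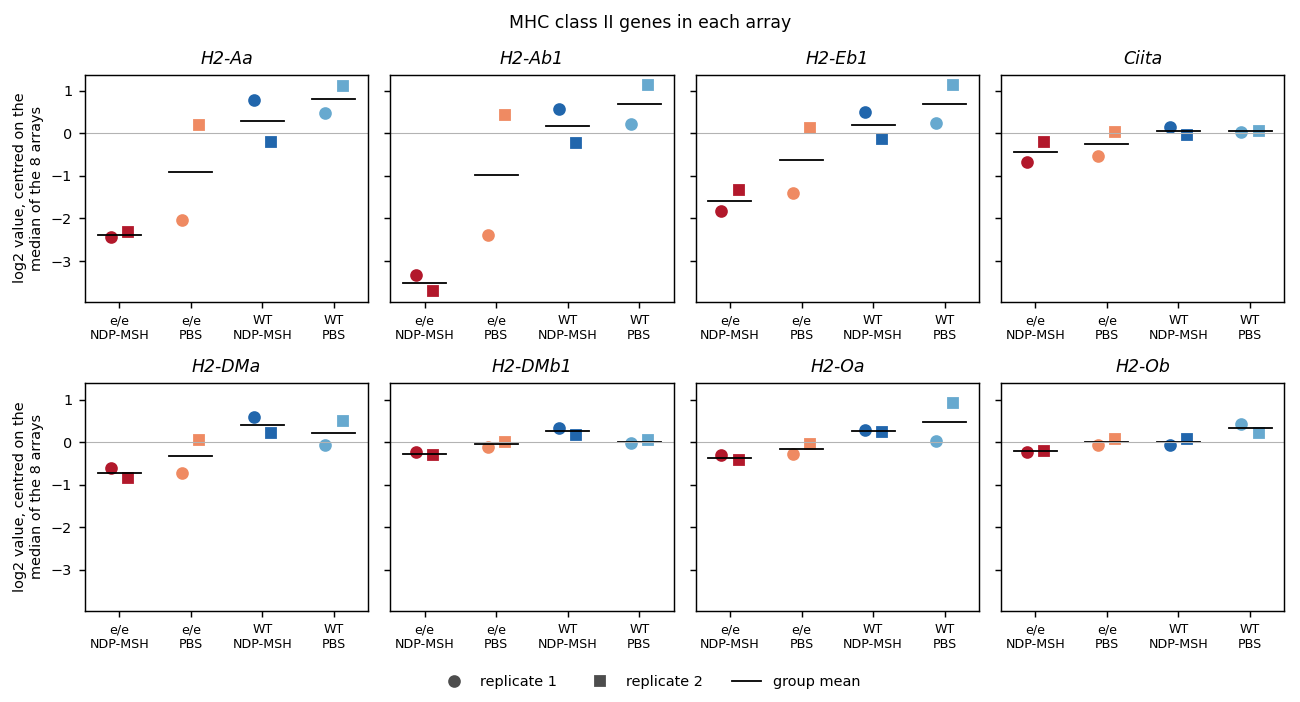
Centred log2 value (vertical axis) of each of the 8 class II genes in the 4 groups (horizontal axis), with a circle for replicate 1, a square for replicate 2 and a line at the group mean. H2-Aa, H2-Ab1 and H2-Eb1 lie low in e/e PBS 1 and both NDP-MSH arrays of e/e mice, and e/e PBS 2 lies with the wild-type arrays.

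The order of the group means, from lowest to highest, was the same for H2-Ab1, H2-Aa and H2-Eb1. H2-Ab1 averaged -3.53 ± 0.27 in e/e NDP-MSH, -0.98 ± 1.99 in e/e PBS, 0.18 ± 0.57 in wild-type NDP-MSH and 0.68 ± 0.65 in wild-type PBS (SD, n = 2 each). H2-Aa averaged -2.38 ± 0.09 in e/e NDP-MSH, -0.91 ± 1.58 in e/e PBS, 0.29 ± 0.70 in wild-type NDP-MSH and 0.80 ± 0.45 in wild-type PBS. H2-Eb1 averaged -1.58 ± 0.35, -0.63 ± 1.08, 0.19 ± 0.45 and 0.70 ± 0.63 in that order of groups. In each of these genes the wild-type groups overlapped, and e/e PBS had the largest SD of the 4 groups.

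Genes that vary with the classical chain genes were found by Pearson's r over the 8 arrays with the mean of H2-Aa, H2-Ab1 and H2-Eb1. The candidates were 284 genes outside the class II list whose SD over the arrays was at least 0.5. Genes with provisional symbols, such as those of the Gm and Rik kinds, were left out of them. The 8 highest were Mpeg1 (a macrophage pore protein, r = 0.998), Ctss (the endosomal protease that trims the invariant chain, 0.998), the chemokine gene Ccl5 (0.997), the class I heavy chain gene H2-K1 (0.997), Lyz2 (lysozyme of myeloid cells, 0.995), the complement gene C4b (0.995), Plek of blood cells (0.994) and the chemokine gene Cxcl16 (0.993). These r values rest largely on the same 3 low e/e arrays and are a description of 8 arrays. Ctss, for example, lay at -1.72 and -1.64 under NDP-MSH and -1.23 and 0.15 under PBS in e/e mice, against 0.25 and -0.15 under NDP-MSH and 0.19 and 0.82 under PBS in wild-type mice. Among the class II genes themselves, r with the same mean was 0.938 for H2-DMa, 0.874 for Ciita, 0.850 for H2-Oa, 0.798 for H2-DMb1 and 0.726 for H2-Ob.

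The comparison of NDP-MSH with PBS in e/e mice asks what the peptide does without functional Mc1r. All 8 class II genes had a lower mean after NDP-MSH, and none passed an adjusted p of 0.05 (limma, Benjamini-Hochberg over all genes), as was true of all genes tested (0% called). The median difference was -0.31, against 0.01 over all genes. At an unadjusted p under 0.05 there were 2 lower genes, H2-Ab1 and H2-DMb1, where 1.78% of all genes were lower at that level. In 5 of 8 genes the NDP-MSH arrays lay below both PBS arrays, against 14.3% of all genes.

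H2-Ab1 differed by -2.55 ± 0.80 in e/e mice (SE, 95% interval -4.42 to -0.67), the largest difference of the 8 genes, or 5.85-fold lower if the log base is 2. H2-Aa differed by -1.47 ± 0.66 (-3.00 to 0.07) and H2-Eb1 by -0.95 ± 0.51 (-2.14 to 0.24). The other 5 genes differed by between -0.40 (H2-DMa) and -0.18 (Ciita). These sizes depended on which PBS array was the control. Without e/e PBS 1, H2-Ab1 differed by -3.96 and passed (adjusted p = 0.0295), H2-Aa by -2.59 and H2-Eb1 by -1.71. Without e/e PBS 2 the differences were -1.14, -0.35 and -0.19 for these 3 genes, -0.0045 for H2-DMa, and 0.10 for Ciita, whose direction turned. With 1 control array left, its spread is assumed to equal that of the other groups.

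**Figure D2:**
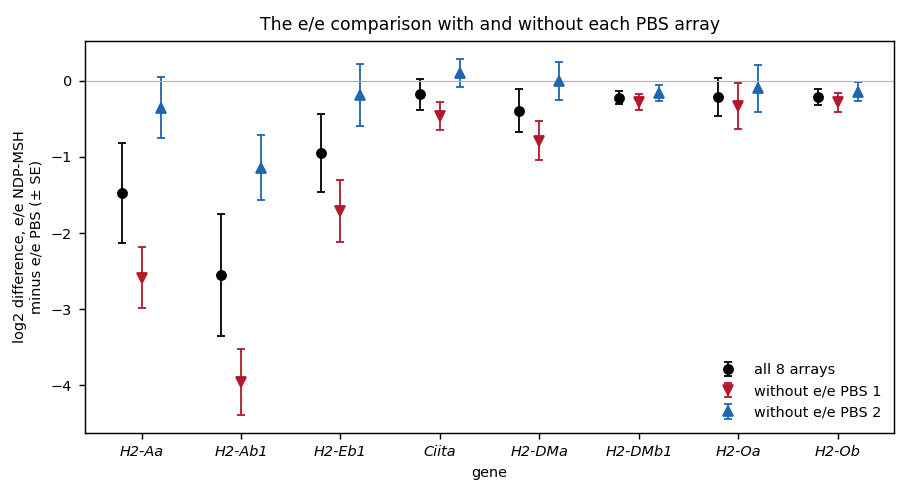
Log2 difference, e/e NDP-MSH minus e/e PBS, with its SE (vertical axis) for the 8 class II genes (horizontal axis), with all 8 arrays or with 1 of the e/e PBS arrays left out. The difference of H2-Ab1 is -2.55 with all arrays, -3.96 without the first and -1.14 without the second, and only H2-Ab1 lies more than 1 below 0 when the second is left out.

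The e/e PBS arrays also differed in sex-linked RNA. The array with low class II, e/e PBS 1, had Xist at 0.56 and Eif2s3y at -0.02. Both e/e arrays under NDP-MSH, also low in class II, had Xist under -4 and Eif2s3y at 2.78 and 2.87. e/e PBS 2, with class II near the wild-type arrays, carried Y-linked signal together with Xist at -0.82.

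The comparison of NDP-MSH with PBS in wild-type mice asks the same where Mc1r is intact. None of the 8 class II genes passed an adjusted p of 0.05, where 0.176% of all genes did, and their median difference was -0.27, against 0.02 over all genes. H2-Ab1 differed by -0.50 ± 0.80 (95% interval -2.38 to 1.37), H2-Aa by -0.51 ± 0.66 (-2.05 to 1.02) and H2-Eb1 by -0.51 ± 0.51 (-1.70 to 0.68), and in all 3 the arrays of the groups overlapped. These intervals include both no difference and differences of over 1 log2 unit downwards. Those of H2-Ab1 and H2-Aa also include differences of over 1 log2 unit upwards. The wild-type NDP-MSH arrays are those with low cerebellar markers.

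In wild-type mice the 2 genes at an unadjusted p under 0.05 pointed in opposite directions. H2-Ob was lower by -0.33 ± 0.10 (adjusted p = 0.296), with NDP-MSH arrays below both PBS arrays. H2-DMb1 was higher by 0.24 ± 0.09 (adjusted p = 0.338), with NDP-MSH arrays above both PBS arrays. Over all genes, 5.6% were lower and 6.72% higher at that level, and the arrays did not overlap in 18.9% (lower) and 25.3% (higher). With 8 genes, 1 in each direction is little to set beside these shares. The others differed by 0.18 (H2-DMa), 0.02 (Ciita) and -0.21 (H2-Oa), and the direction of each of these 3 turned when 1 wild-type array was left out: H2-DMa without PBS 1 (-0.10) or NDP-MSH 1 (-0.01), Ciita without NDP-MSH 1 (-0.07) and H2-Oa without PBS 2 (0.23).

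The effect of NDP-MSH in e/e mice minus its effect in wild-type mice set the responses of the genotypes side by side. The NDP-MSH and PBS arrays also differed in sex-linked RNA in e/e mice and in cerebellar RNA in wild-type mice. Genotype, sex and dissected region therefore cannot be told apart in this difference. No class II gene passed an adjusted p of 0.05 (limma), as was true of all genes (0% called), and the median was -0.45, against -0.01 over all genes. H2-Ab1 differed by -2.04 ± 1.14 (adjusted p = 0.712) and H2-Aa by -0.96 ± 0.93 (0.826). The 1 gene at an unadjusted p under 0.05 was H2-DMb1, at -0.47 ± 0.12 (adjusted p = 0.477), where 3.67% of all genes were lower at that level. Without e/e PBS 2 the median of the 8 genes was 0.10.

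Under PBS, e/e was set against wild-type, a comparison that shares its e/e arrays with the treatment comparison in e/e mice. All 8 genes had a lower mean in e/e mice, with a median of -0.59 against 0.00 over all genes, and none passed an adjusted p of 0.05 (limma, 0% of all genes called). At an unadjusted p under 0.05 there were 4 lower genes, H2-Aa, H2-Eb1, H2-Oa and H2-Ob, against 2.56% of all genes. The e/e arrays lay below both wild-type arrays in 5 of 8 genes, against 16.7%. H2-Aa differed by -1.71 ± 0.66 (95% interval -3.25 to -0.18), H2-Ab1 by -1.66 ± 0.80 (-3.54 to 0.22) and H2-Eb1 by -1.33 ± 0.51 (-2.51 to -0.14). Without e/e PBS 1, H2-Ab1 differed by -0.25, and without e/e PBS 2 by -3.07. Eif2s3y lay at -0.02 and 2.04 in the e/e PBS arrays, against 0.02 and -0.07 in the wild-type PBS arrays. The part of sex in this comparison was not tested.

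Under NDP-MSH, where neither group had arrays so far apart, e/e was again set against wild-type. This comparison was added after the values were seen and shares each group with one of the treatment comparisons. All 8 class II genes had e/e arrays below both wild-type arrays, against 23.6% of all genes. None passed an adjusted p of 0.05 in the fit over all 8 arrays (limma), where 0.338% of all genes did, and 7 of 8 were lower at an unadjusted p under 0.05, against 7.45% of all genes. The median was -0.88, against -0.01 over all genes.

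Under NDP-MSH the 3 classical chain genes again had the largest differences. H2-Ab1 differed by -3.70 ± 0.80 (95% interval -5.58 to -1.83, adjusted p = 0.115), H2-Aa by -2.67 ± 0.66 (6.37-fold lower in e/e mice, adjusted p = 0.141), H2-Eb1 by -1.77 ± 0.51 (0.182) and H2-DMa by -1.13 ± 0.28 (0.143). H2-DMb1 differed by -0.53 ± 0.09, with the smallest adjusted p of the 8 (0.067). H2-Oa, Ciita and H2-Ob differed by -0.63, -0.50 and -0.20. With only these 4 arrays in the fit, 5 class II genes passed, H2-Ab1 (adjusted p = 0.00261), H2-Aa (0.0115), H2-DMa (0.0234), H2-Eb1 (0.0244) and H2-Oa (0.0276), and without either e/e PBS array 4 passed, H2-Ab1, H2-Aa, H2-DMa and H2-DMb1. Leaving out e/e PBS 1 or 2 changes the spread estimate and not these differences. The groups also differed in sex-linked RNA and in cerebellar RNA, as given above, and genotype, sex and dissected region cannot be told apart here.

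**Figure D3:**
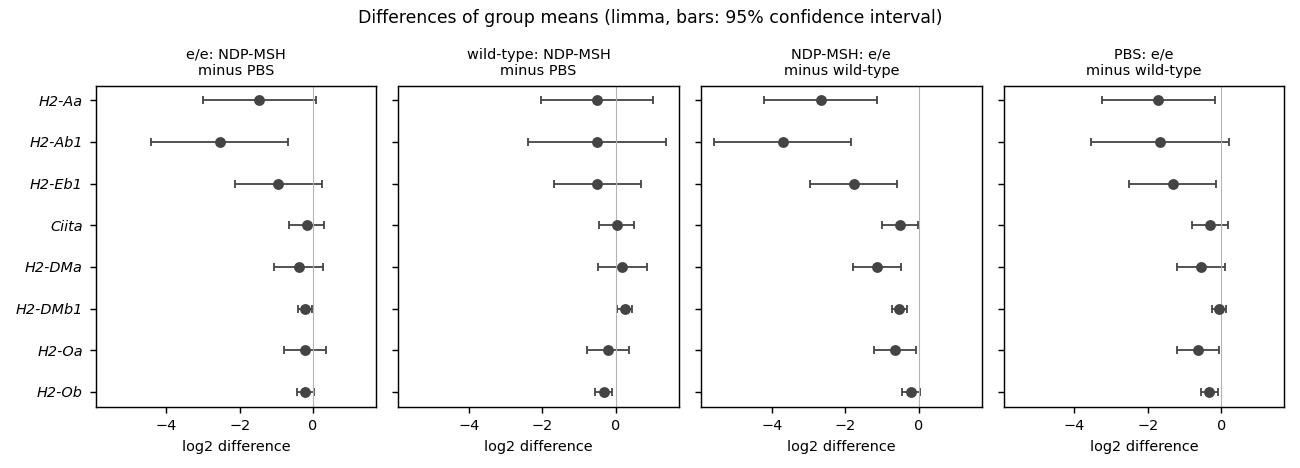
Log2 difference of group means with its 95% confidence interval (horizontal axis) for the 8 class II genes (vertical axis) in the 4 comparisons named above the panels. Under NDP-MSH the intervals of 7 of 8 genes lie below 0, and in wild-type mice the intervals of 6 of 8 include 0.

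Further genes of the pathway did not move as one. The region holds 3 more class II genes, none called in any comparison. H2-Ea and H2-Eb2 stayed between -0.17 and 0.19 in all arrays. H2-DMb2 lay at -0.08 and -0.73 under NDP-MSH and -0.40 and 0.08 under PBS in e/e mice, against 0.35 and -0.09 under NDP-MSH and 0.57 and 0.16 under PBS in wild-type mice. Of the 7 genes of promoter factors (Rfx5, Rfxank, Rfxap, Nfya, Nfyb, Nfyc and Creb1), 0 were called in any comparison, and the array medians of this list lay between -0.07 and 0.09. The largest difference among them was Nfyc, a subunit of NF-Y, at 0.33 ± 0.08 between e/e and wild-type under NDP-MSH (adjusted p = 0.149).

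Of 8 measured genes of the interferon gamma route to Ciita, 0 were called in any comparison. In e/e mice 8 of 8 had a lower mean after NDP-MSH, with a median of -0.15 against 0.01 over all genes. In 3 of 8 the NDP-MSH arrays lay below both PBS arrays, against 14.3% of all genes. The array medians of the list in e/e mice were -0.16 and -0.16 under NDP-MSH and -0.24 and 0.20 under PBS. Thus e/e PBS 1 had a lower median than both NDP-MSH arrays. Irf1, the transcription factor induced by interferon gamma that acts on the Ciita promoter, had the largest of the 8 differences, at -1.10 ± 0.50. It lay at -1.05 and -1.24 under NDP-MSH and -0.90 and 0.82 under PBS in e/e mice, against 0.21 and 0.28 under NDP-MSH and -0.21 and 0.58 under PBS in wild-type mice. Ifng itself stayed between -0.18 and 0.20 in all arrays, and Ifngr1, its receptor chain, differed by -0.45 ± 0.12 between e/e and wild-type under NDP-MSH (adjusted p = 0.162).

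The endosomal processing genes were uneven, and 0 of 9 were called in any comparison. Ifi30, the thiol reductase that unfolds antigens, lay at -2.005 and -2.10 under NDP-MSH and -1.63 and 0.10 under PBS in e/e mice, against 0.41 and -0.06 under NDP-MSH and 0.06 and 0.49 under PBS in wild-type mice. Like H2-Ab1, Ifi30 and Ctss were low in 3 e/e arrays and near the wild-type arrays in e/e PBS 2. Cd68, a lysosomal protein of macrophages, differed by -1.35 ± 0.24 between e/e and wild-type under NDP-MSH (adjusted p = 0.078). Under NDP-MSH, 8 of 9 genes of the list had a lower mean in e/e than in wild-type mice, with a median of -0.37 against -0.01 over all genes, and 6 were lower at an unadjusted p under 0.05, against 7.45% of all genes. The cathepsin genes Ctsl and Ctsb stayed between -0.22 and 0.15.

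Among 11 co-stimulatory genes and their T cell partners, 0 were called. In e/e mice 11 of 11 had a lower mean after NDP-MSH (median -0.22, against 0.01 over all genes). In 5 of 11 the NDP-MSH arrays lay below both PBS arrays, against 14.3% of all genes. The array medians of the list in e/e mice were -0.25 and -0.24 under NDP-MSH and -0.12 and 0.12 under PBS. Cd80 lay at -0.26 and -0.42 under NDP-MSH and -0.41 and -0.02 under PBS, so its e/e groups overlapped. Cd274, which encodes the inhibitory ligand PD-L1, lay at -2.22 and -2.26 under NDP-MSH and -2.06 and 0.72 under PBS in e/e mice, against 0.31 and 0.32 under NDP-MSH and -0.31 and 0.72 under PBS in wild-type mice. The turnover genes Marchf1, Marchf8, Cd83 and Il10 had array medians between -0.05 and 0.04, and 0 of 4 were called. In e/e mice 4 of 4 had a higher mean after NDP-MSH (median 0.10, against 0.01 over all genes), of opposite sign to the class II genes. In 3 of 4 the NDP-MSH arrays lay above both PBS arrays, against 16% of all genes. Under PBS 4 of 4 had a lower mean in e/e than in wild-type mice, with Cd83 at -0.27 ± 0.07 (limma, adjusted p = 0.887).

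Interferon gamma is also known to induce the class I presentation genes and a family of GTPases. Their array medians were low in the same 3 e/e arrays. The class II median lay at -0.64 and -0.64 under NDP-MSH and -0.63 and 0.06 under PBS in e/e mice, the class I median (12 genes) at -0.98 and -1.005 under NDP-MSH and -0.79 and 0.29 under PBS in e/e mice, and the GTPase median (9 genes) at -2.01 and -2.04 under NDP-MSH and -1.71 and 0.68 under PBS in e/e mice. In wild-type NDP-MSH and wild-type PBS arrays the 3 medians lay between -0.29 and 0.71. In e/e PBS 2 the GTPase median of 0.68 was as high as the 0.66 of wild-type PBS 2, and the class II median of 0.06 was below the 0.71 of that array. No gene of the class I or GTPase list was called in any comparison. Under NDP-MSH, 12 of 12 class I genes and 9 of 9 GTPase genes had a lower mean in e/e than in wild-type mice, with medians of -1.24 and -2.38 against -0.01 over all genes. Of these, 12 and 8 were lower at an unadjusted p under 0.05, against 7.45% of all genes.

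Markers of the cells that could carry class II were read beside these values. The 9 markers of infiltrating monocytes and macrophages had array medians of -1.10 and -0.89 under NDP-MSH and -0.88 and 0.25 under PBS in e/e mice, against 0.52 and 0.20 under NDP-MSH and 0.01 and 0.36 under PBS in wild-type mice. Ccr2, the receptor by which monocytes enter the brain, lay at -1.16 and -0.88 under NDP-MSH and -0.73 and 0.06 under PBS in e/e mice, against 0.04 and -0.01 under NDP-MSH and 0.01 and 0.09 under PBS in wild-type mice. The median of 7 T cell markers lay at -0.24 and -0.34 under NDP-MSH and -0.27 and 0.09 under PBS in e/e mice, against 0.24 and 0.10 under NDP-MSH and -0.04 and 0.24 under PBS in wild-type mice. Cd4 lay between -0.92 and -0.26 in the 4 e/e arrays and between 0.26 and 1.01 in the 4 wild-type arrays. The other T cell markers (Cd3d, Cd3e, Cd3g, Cd2, Cd5 and Cd8a) did not share this split, and lay between 0.0053 and 0.44 in e/e PBS 2. Under PBS the e/e arrays lay below both wild-type arrays in 1 of the 7 markers, against 16.7% of all genes. Thus the monocyte and T cell medians were low in the 3 e/e arrays in which H2-Ab1 was low.

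The medians of 6 microglial markers lay between -0.26 and -0.06 in the e/e arrays, against 0.02 to 0.32 in the wild-type arrays. Those of 7 border macrophage markers lay between -0.19 and -0.04 in the e/e arrays, against 0.04 to 0.44 in the wild-type arrays. In 3 genes of these lists, e/e was called lower than wild-type under NDP-MSH (limma): the microglial gene Olfml3 at -0.77 ± 0.10 (adjusted p = 0.0345), the scavenger receptor gene Cd163 of border macrophages at -0.57 ± 0.07 (0.0345) and F13a1, which encodes a clotting factor subunit made by macrophages, at -1.11 ± 0.15 (0.0431). These are 3 of the 13 genes of the microglial and border macrophage lists, where 0.0721% of all genes were called lower. In wild-type mice these lists were mostly higher after NDP-MSH than after PBS. There 6 of 7 border macrophage genes (median 0.31) and 5 of 6 microglial genes (median 0.12) had a higher mean, against 0.02 over all genes. Cd163 was higher there by 0.37 ± 0.07 and Olfml3 by 0.28 ± 0.10, and neither passed (limma, adjusted p = 0.17 and 0.33). The largest rises of the border macrophage list there were those of Lyve1, at 0.81 ± 0.12, and Cbr2, at 0.80 ± 0.13. These did not pass either (limma, adjusted p = 0.0887 and 0.107). Under PBS, Cd163 lay at -0.04 and -0.04 in e/e mice, against 0.14 and 0.04 in wild-type mice. The border macrophage list was mixed under PBS, with 2 of 7 genes (Lyve1 and Cbr2) higher and 5 lower in e/e mice by mean. Lyve1 was higher there by 0.30 ± 0.12 (limma, adjusted p = 0.971), and Ms4a7 differed by -0.65 ± 0.12 (0.839). The medians of 6 B cell markers stayed between -0.06 and 0.10 and those of 6 dendritic cell markers between -0.18 and 0.21 in all arrays. Within the dendritic list Itgax, which activated myeloid cells also express, lay at -0.70 and -0.65 under NDP-MSH and -0.48 and 0.46 under PBS in e/e mice, against 0.71 and -0.19 under NDP-MSH and 0.19 and 1.10 under PBS in wild-type mice. Flt3, a growth factor receptor of dendritic cells, lay at 0.08 and 0.09 under NDP-MSH and 0.01 and 0.07 under PBS in e/e mice, against -0.22 and -0.66 under NDP-MSH and -0.01 and -0.07 under PBS in wild-type mice. Under NDP-MSH, e/e minus wild-type was 0.52 ± 0.13 for Flt3 (limma, adjusted p = 0.148), of opposite sign to the 8 class II genes. For Cd209a, also of the dendritic list, it was -0.32 ± 0.10 (0.201). Of the 6 dendritic markers, 3 were higher and 3 lower in this comparison. With NDP-MSH against PBS in wild-type mice, Flt3 differed by -0.40 ± 0.13 (adjusted p = 0.322) and Zbtb46, a transcription factor of dendritic cells, by -0.49 ± 0.14 (0.279). Cd209a differed there by 0.29 ± 0.10 (0.32), the 1 higher marker against 5 lower. The part of cell composition in the class II differences was not tested.

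**Figure D4:**
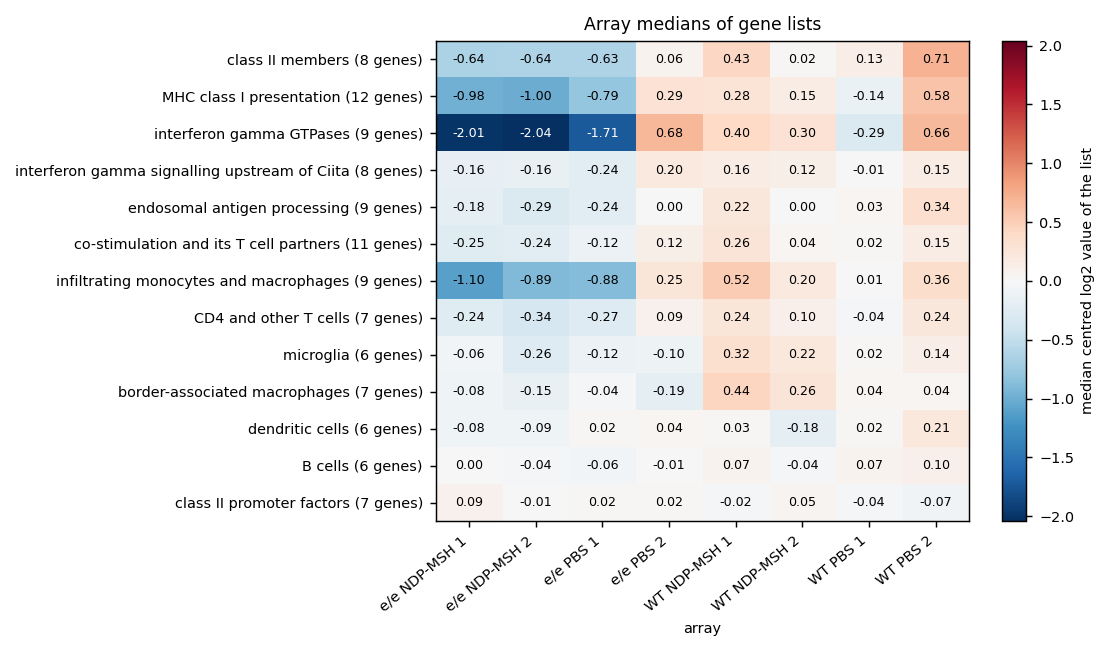
Median centred log2 value of 13 gene lists (rows, with the number of genes measured) in each of the 8 arrays (columns), with colour and number giving the same value. Class II, class I, GTPase and monocyte medians are negative in e/e PBS 1 and both NDP-MSH arrays of e/e mice, and B cell and promoter factor medians stay between -0.07 and 0.10 in all arrays.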

How the data were processed

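RNA of total brain was labelled with the WT Plus kit for Affymetrix whole-transcript arrays, per the labels' protocols. The deposited table gives 33793 probe sets on 8 arrays in values made by the authors, which were taken as log2. Summarisation, normalization and log base were not given in the sources used here, so base 2 is an assumption on which each difference rests. Each row was centred on its median (largest absolute row median 5e-07). The table holds no signal level. Values stored in single precision are spaced more coarsely above 8 than between 4 and 8, and the spacing left in the differences gave the class used for the filter (6460 probe sets at 8 or above on every array). Precision is limited by having 2 arrays per group.

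Probe sets with exactly 1 gene symbol (23521, against 1814 with several and 8458 unnamed) were averaged per gene, which gave 22180 genes. Of the named probe sets, 23328 matched a RefSeq entry of GRCm38.p6 by Entrez identifier and symbol. limma 3.58.1 in R 4.3.3 fitted 1 coefficient per group over all 8 arrays (4 residual and 3.45 prior degrees of freedom), with two-sided moderated tests, adjusted over all genes by Benjamini-Hochberg at 0.05. Related genes were named by the smallest p, up to 3 per list and comparison, with a few further list members chosen after their values were seen. The genes and lists were chosen with earlier results of these data known. The fit was tested on simulated data. Alternatives were a replicate block, array weights, quantile normalization, array centring, only the arrays compared, single probe sets, a signal of 8 or above, robust moderation and leaving out each array. Slide and scan date were not used here. Python 3.11.15 with matplotlib 3.10.9 drew the figures. The comparison of genotypes under NDP-MSH was added after the values were seen.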

Additional observations from a re-analysis of the deposited data

Results flagged for a closer look

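H2-DMb1 pointed in opposite directions in the genotypes, with both e/e NDP-MSH arrays below both e/e PBS arrays and both wild-type NDP-MSH arrays above both wild-type PBS arrays. The effect in e/e mice minus the effect in wild-type mice was -0.47 ± 0.12 (limma, adjusted p = 0.477), so it did not pass over all genes. The NDP-MSH arrays lay on opposite sides of the PBS arrays in the 2 genotypes in 1427 of 22180 genes, which is 6.43%.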

How the results depend on the processing

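No class II gene passed in any comparison under array weights, quantile normalization of the deposited values, array centring on the median, single probe sets, robust moderation or a replicate block. Of 592 alternative results for single class II genes, 562 kept their direction and their side of the threshold, 16 reversed and 14 came to pass. No class II gene met the filter at a signal of 8 or above, so that filter gave none of their values. The effect in e/e minus the effect in wild-type needs all 4 groups and had no fit on fewer. Over all genes, 39 passed for NDP-MSH against PBS in wild-type mice, against 20 after quantile normalization, 5 with only the arrays compared, and 0 (without wild-type PBS 2) to 49 (without either e/e PBS array) with 1 array left out. In e/e mice, 0 passed, and 51 of all genes and 1 class II gene without e/e PBS 1. For the difference between these effects, 0 passed, against 1 after quantile normalization, 3 at a signal of 8 or above and 0 to 7 with 1 array left out. For e/e against wild-type under PBS, 0 passed, and 0 to 4 with 1 array left out. Under NDP-MSH, 75 passed, against 26 after quantile normalization, 477 (5 class II genes) with only the arrays compared, and 0 (without e/e NDP-MSH 1) to 471 (4 class II genes, without either e/e PBS array). The cause of these shifts was not tested.

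With 1 array left out, the median class II difference ranged from -0.62 to -0.15 for NDP-MSH against PBS in e/e mice, from -0.43 to -0.0052 in wild-type mice, from -0.75 to 0.10 for the difference of effects, from -0.95 (without wild-type PBS 1) to -0.25 (without e/e PBS 1) for genotype under PBS, and from -0.99 to -0.77 under NDP-MSH. Directions turned in wild-type mice for H2-DMa (-0.10 to 0.46), H2-Oa (-0.65 to 0.23) and Ciita (-0.0717 to 0.11), and in e/e mice for Ciita (-0.46 to 0.10). For the difference of effects they turned for H2-Eb1 (-1.21 to 0.32), H2-Oa (-0.44 to 0.43), Ciita (-0.48 to 0.0844) and H2-Aa (-2.07 to 0.16), and H2-Oa also turned with arrays centred on their median (0.0034).

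Deviations of same-numbered arrays correlated between -0.25 and 0.44 over the 6 pairs of groups, with the highest value for wild-type PBS and e/e PBS. Whether same-numbered arrays share more than a number cannot be told from these correlations. The replicate block left 14 genes in wild-type mice and 51 for genotype under NDP-MSH, 0 in the other comparisons and 0 class II genes in any. With 2 arrays per group, 1 array can decide a value.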
